A study of Rattus norvegicus with 6 samples.

Results

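Translation initiation factors are the proteins that bring the initiator tRNA, the mRNA and the ribosomal subunits together at the start codon. Their transcripts were followed in cultured neonatal rat cardiomyocytes under phenylephrine or biaxial stretch. The members are the probe sets whose platform gene symbol starts with Eif1, Eif2, Eif3, Eif4, Eif5 or Eif6, leaving out the Eif2ak kinases, with the brightest probe set over the 6 arrays standing for each gene. This gave 45 genes out of 14217 genes that had a probe set with 1 gene symbol. They fall into 11 complexes or roles, of which eIF3 with 11 genes is the largest. Another 5 probe sets carry several symbols at once, among them those for Eif5 and Eif3e. These 5 were fitted but stand for no gene.

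The cells were cardiomyocytes of Wistar rats 1 to 2 days old, freed of most fibroblasts by centrifugation through Percoll. There were 3 groups of 2 Affymetrix arrays each: cells given phenylephrine at 50 µmol/l, cells stretched biaxially to 112% for 24 h, and untreated control cells. Phenylephrine is an α-adrenergic agonist that makes cultured neonatal myocytes grow. The protocol text of the phenylephrine samples also names endothelin-1 and angiotensin II at 100 nM, whereas their titles and the series design name phenylephrine alone. Stretched cells had grown for 36 h on collagen-coated silicone and spent 24 h without serum before the stretch. How long phenylephrine was given, and on what surface the other cells grew, is not given in the sources used. Several preparations were pooled for RNA, and the labels do not state that paired arrays were separate cultures. The p-values below cover only the spread between samples, and that spread may be technical.

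Initiation begins when eIF2 loads the initiator tRNA onto the small ribosomal subunit and the cap-binding complex eIF4F recruits the mRNA. Phosphorylation of eIF2 blocks its exchange factor eIF2B, and the eIF4E-binding proteins keep the cap-binding protein from its scaffold until they are themselves phosphorylated. Hypertrophic growth of heart muscle cells is accompanied by a higher rate of protein synthesis, which is set largely at these steps.

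Values are the deposited log2 signals. Signals of different probe sets are not on 1 scale of abundance, so no gene is called more abundant than another and differences are taken within a gene. Differences are given with the standard error (SE) from a limma fit to all 6 arrays. A gene was called where its p, adjusted by the Benjamini-Hochberg method over 31042 probe sets, was below 0.05. Arrays of a group correlated at 0.994 to 0.995. The interquartile range was wider on the 3 arrays numbered 1 (1.89 to 1.92) than on the 3 numbered 2 (1.70 to 1.82). Phenylephrine replicate 2 had a median hybridization control of 9.31, against 10.13 to 10.37 on the other 5 arrays. The log2 excess of 3′ over 5′ signal, which reads RNA quality, was 0.25 and 0.30 for Gapdh in phenylephrine cells and 0.36 and 0.48 in stretched cells, against 0.36 and 0.59 in control cells. For actin it was 1.04 and 0.97 in phenylephrine cells and 1.101 and 1.408 in stretched cells, against 1.18 and 1.39 in control cells. It was thus lowest on the phenylephrine arrays, and its part in the results was not tested.

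All 45 initiation factors had a mean signal above the median probe set. For counts over all 45, the 15521 probe sets brighter than the median are therefore given beside all probe sets as their background. The 9 myocyte markers found had signals between 12.25 and 15.07 on every array, and 1 was called, higher in phenylephrine cells. They were above both control arrays in 6 of 9 cases in phenylephrine cells. In stretched cells 1 was above and 1 was below both control arrays, and 5 of 9 were below both phenylephrine arrays. Their summed linear signal was 187300 and 209100 in phenylephrine cells, 159500 and 186900 in stretched cells, and 170900 and 157800 in control cells. The fibroblast markers Col1a1, Col1a2, Col3a1, Dcn, Postn, Pdgfra, Tcf21, Dpt and Lum were on both phenylephrine arrays below both control arrays in 9 of 9 cases, and 4 were called lower. They were also below both control arrays in 9 of 9 cases on the stretched arrays, where 0 were called. Their summed linear signal was 31730 and 30420 in phenylephrine cells, 35470 and 36980 in stretched cells, and 43990 and 43030 in control cells. Endothelial markers were below both control arrays in 4 of 5 cases in phenylephrine cells, with 1 called lower (Kdr), and in 3 of 5 in stretched cells, with 0 called. Their summed signal was 1678 and 1559 in phenylephrine cells and 2185 and 2051 in stretched cells, against 2322 and 2233 in control cells. Leukocyte markers were below both control arrays in 4 of 5 cases in phenylephrine cells, with 1 called lower (Cd68), and in 1 of 5 in stretched cells, with 0 called. Their summed signal was 6671 and 6199 in phenylephrine cells and 8129 and 8360 in stretched cells, against 8515 and 8312 in control cells. Of 4 smooth muscle markers, Acta2 and Cnn1 were called higher in phenylephrine cells, where Myh11 had both arrays below both control arrays and Tagln stood at -0.03. In stretched cells 3 of the 4 lay above both control arrays, with Cnn1 called. In such bulk samples, fewer cells of a type and less RNA per cell cannot be told apart. The part of these marker changes in the results on initiation factors was not tested.

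In phenylephrine cells 2 of the 45 initiation factors rose and 0 fell, where 3.6% of all probe sets were called. The risers were Eif4ebp1, the repressor that binds eIF4E, and Eif2s2, the β subunit of eIF2. Of the 15521 probe sets brighter than the median, 443 were called higher and 466 lower in phenylephrine cells. At an unadjusted p under 0.05, 10 of the 45 were higher (background 6.98%) and 3 were lower (background 9.58%). At that level 1520 of the brighter 15521 were higher and 2265 were lower. Under stretch 0 of the 45 were called, where 0.345% of all probe sets were called. Of the brighter 15521, 83 were called higher and 10 lower under stretch. At an unadjusted p under 0.05, 11 of the 45 were higher (background 3.6%) and 0 were lower (background 1.94%). At that level 767 of the brighter 15521 were higher and 449 were lower. Between stretch and phenylephrine 0 of the 45 were called, where 1.33% of all probe sets were called. In this comparison 176 of the brighter 15521 were called higher and 151 lower. Among the 45, 5 were higher under stretch (background 7.84%) and 2 were lower (background 4.63%) at an unadjusted p under 0.05. At that level 1768 of the brighter 15521 were higher and 1023 were lower. Both stimuli were set against the same 2 control arrays, so their differences from control share that error.

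The differences of most factors from control were small. The median over the 45 genes was 0.06 in phenylephrine cells, with a range of -0.35 to 0.83, and 0.11 in stretched cells, with a range of -0.15 to 0.70. Over all probe sets the medians were 0.0060 and 0.0056. In phenylephrine cells 18 of 45 factors had both arrays above both control arrays (background 21.5%, and 20.9% over probe sets brighter than the median) and 8 had both below (background 22.1% and 29.9%). In stretched cells 24 of 45 had both arrays above both control arrays, where the background was 19.4% over all probe sets and 19.6% over those brighter than the median. In 4 of 45 both stretched arrays were below, against 16.5% of all probe sets and 20.7% of the brighter ones. Relative to both phenylephrine arrays, both stretched arrays were above in 15 of 45 factors (background 21.6%, and 26.9% over the brighter ones) and below in 4 (background 17.2% and 17%).

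The median difference of the 45 factors from the control mean was 0.21 on phenylephrine replicate 1 and -0.05 on phenylephrine replicate 2. It was 0.16 and 0.10 on the stretched arrays, against 0.06 and -0.06 on the control arrays. The phenylephrine median therefore changed sign between its 2 arrays, while both stretched arrays lay above both control arrays. In every group the array numbered 1 had the higher median, and the part of this in the sign change was not tested. On quantile-normalized values the calls in phenylephrine cells numbered 9 higher and 3 lower, in place of 2 and 0, while those over all probe sets went up to 2790 in place of 1117. In stretched cells they numbered 4 higher and 0 lower, with 386 over all probe sets in place of 107.

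**Figure D1:**
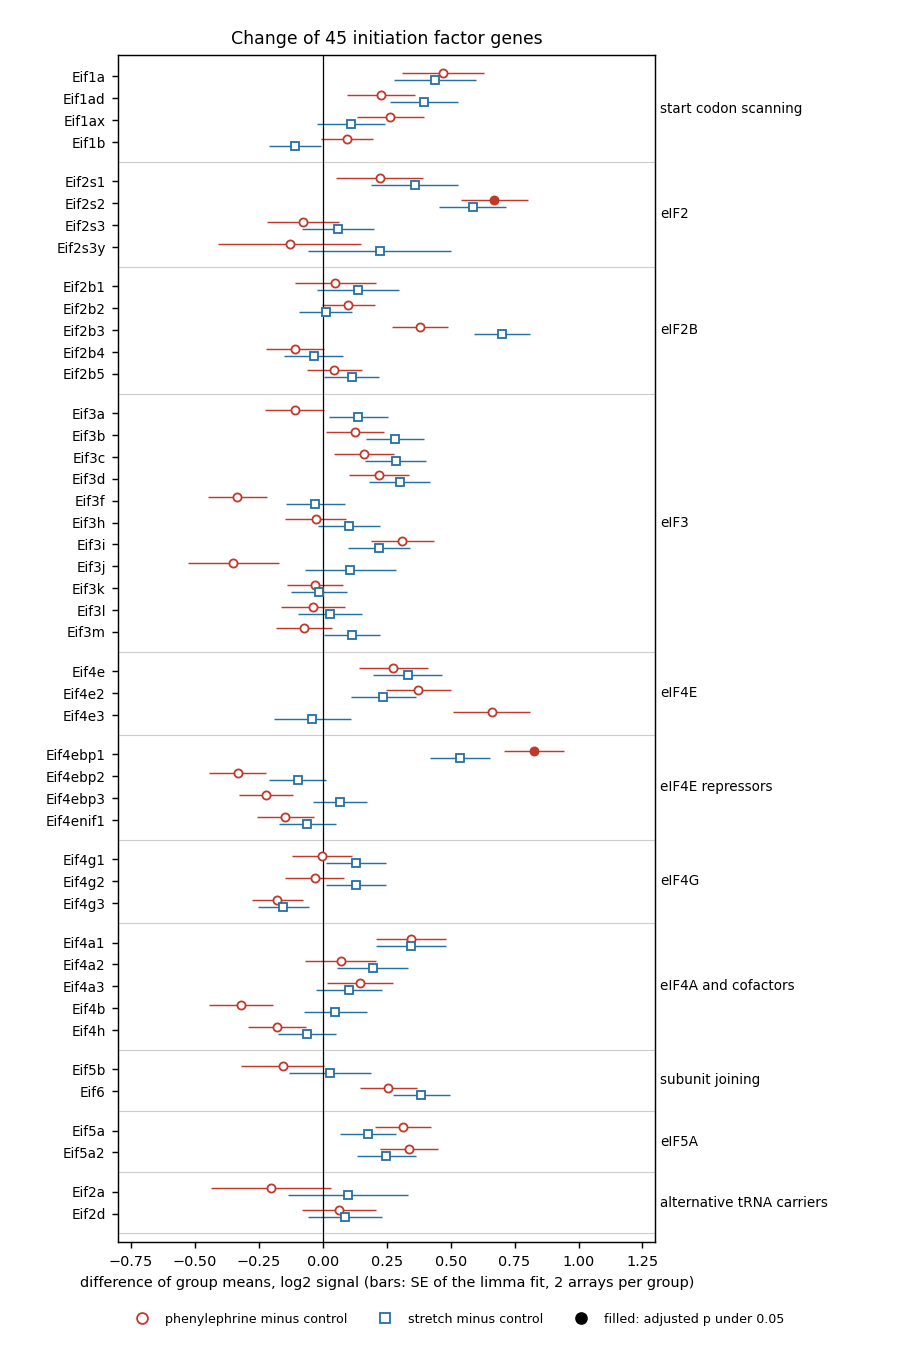
Difference from control (log2, x axis) of each of the 45 initiation factors (y axis, grouped by complex) in phenylephrine cells and in stretched cells, with filled markers where the adjusted p was below 0.05. Only Eif4ebp1 and Eif2s2 are filled, both in phenylephrine cells, and the largest stretch difference is that of Eif2b3 at 0.70.

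The eIF4E-binding proteins sequester the cap-binding protein and so hold back cap-dependent initiation. Eif4ebp1 had 12.55 and 12.48 in phenylephrine cells and 12.27 and 12.18 in stretched cells, against 11.78 and 11.59 in control cells. All 4 stimulated arrays lay above both control arrays, and the phenylephrine arrays lay above the stretched ones. Eif4ebp1 rose by 0.83 ± 0.12 (SE, n = 2 arrays a group; limma adjusted p = 0.012) in phenylephrine cells, a 1.77-fold difference and the largest among the 45 factors. In stretched cells its difference from control was 0.54 ± 0.12 (adjusted p = 0.20). The stretched cells stood at -0.29 ± 0.12 relative to the phenylephrine cells, with a 95% interval of -0.56 to -0.02 before adjustment and an adjusted p of 0.37. Leaving out control replicate 1 (0.92, adjusted p = 0.0501) or control replicate 2 (0.73, adjusted p = 0.11) ended the phenylephrine call, with the lone control array assumed to vary like the other groups.

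The other 3 repressors had phenylephrine values below control. Eif4ebp2, the form known as abundant in brain, had 10.60 and 10.52 in phenylephrine cells and 10.82 and 10.77 in stretched cells, against 10.83 and 10.96 in control cells. Its difference in phenylephrine cells was -0.33 ± 0.11 (unadjusted p = 0.018, adjusted p = 0.18). Eif4ebp3 stood at -0.22 and Eif4enif1, which carries eIF4E into the nucleus, at -0.15 in the same comparison. Of the 4 repressor genes, 1 lay above and 3 lay below both control arrays in phenylephrine cells (background 21.5% and 22.1%). Over probe sets brighter than the median that background was 20.9% and 29.9%. In stretched cells 2 lay above and 1 lay below (background 19.4% and 16.5%).

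All 3 genes of the cap-binding family had both phenylephrine arrays above both control arrays (background 21.5%), and 0 were called (background 3.6%). Eif4e3, an atypical member of the eIF4E family, had 10.52 and 10.09 in phenylephrine cells and 9.70 and 9.51 in stretched cells, against 9.68 and 9.61 in control cells. Its phenylephrine arrays stood apart from the other 4, and its stretched arrays overlapped the control arrays. The difference in phenylephrine cells was 0.66 ± 0.15 (adjusted p = 0.062), and its second probe set gave 0.37. Stretch against phenylephrine gave -0.70 ± 0.15 (adjusted p = 0.083), the largest such difference among the 45 factors. Of 14 alternative settings, 5 called Eif4e3 in phenylephrine cells and 4 called it in stretch against phenylephrine.

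Eif4e, the cap-binding protein that limits assembly of eIF4F, had 12.09 and 11.87 in phenylephrine cells and 12.05 and 12.01 in stretched cells, against 11.83 and 11.57 in control cells. Both stimuli had all their arrays above both control arrays. The difference was 0.28 ± 0.13 in phenylephrine cells (adjusted p = 0.37) and 0.33 ± 0.13 in stretched cells (adjusted p = 0.84). The gene's other probe sets gave 0.04 to 0.17 in phenylephrine cells and 0.08 in stretched cells. RefSeq names 10 pseudogenes after Eif4e, and whether its probes read them was not tested. Eif4e2, which binds the cap weakly and can repress translation, had 10.78 and 10.58 in phenylephrine cells and 10.61 and 10.48 in stretched cells, against 10.39 and 10.22 in control cells. Its differences were 0.37 ± 0.13 in phenylephrine cells and 0.24 ± 0.13 in stretched cells (adjusted p = 0.19 and 1.0).

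**Figure D2:**
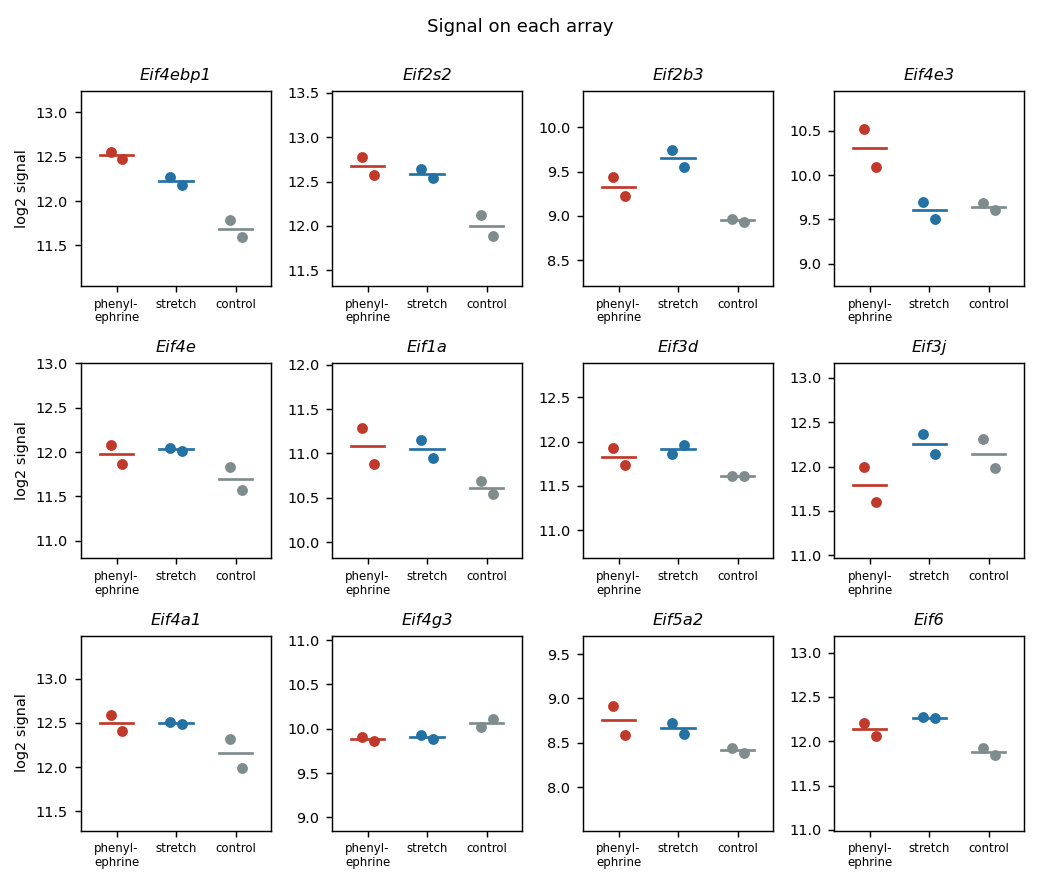
Log2 signal (y axis, each panel spanning the same range around the gene's mean) of 12 initiation factors on the phenylephrine, stretched and control arrays (x axis), with dots for arrays and a line for each group mean. Eif4ebp1 and Eif2s2 show 4 stimulated arrays above both control arrays, as do Eif2b3, Eif4e, Eif1a, Eif3d, Eif4a1, Eif5a2 and Eif6. Eif2b3 is highest under stretch, and Eif4e3 is high on the phenylephrine arrays alone.

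The transcription factor Myc binds the E-box CACGTG and is known to act on Eif4e in mammals. Promoter windows of 250 bases before the gene start, from RefSeq on GRCr8, were found for 41 of the 45 factors and searched on both strands. The palindrome CACGTG occurred in 8 of 41 factors (19.5%) and in 5.59% of 33469 promoters of the same table. The 8 were Eif1b, Eif3b, Eif3f, Eif4e, Eif4g1, Eif4h, Eif5a and Eif5a2. Windows of 30 bases around the sites of Eif4e and Eif5a2, the factors with more than 1 site, are shown with the E-box in capitals.
Eif4e, chr2:229740504-229740533, plus strand: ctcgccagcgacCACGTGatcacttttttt
Eif4e, chr2:229740661-229740690, plus strand: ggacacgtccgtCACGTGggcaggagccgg
Eif5a2, chr2:113657626-113657655, plus strand: actaatccgcagCACGTGgggttgccaggg
Eif5a2, chr2:113657651-113657680, plus strand: cagggcgagcttCACGTGactgggcgggac
The median difference in phenylephrine cells was 0.11 over the 8 factors with an E-box (5 above 0) and 0.05 over the 33 without (18 above 0). In stretched cells these medians were 0.15 (5 above 0) and 0.11 (28 above 0). A match is a description of the letters in the window and not a binding site.

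The initiator tRNA is delivered by the 3 subunits of eIF2. Eif2s2, its β subunit, had 12.78 and 12.57 in phenylephrine cells and 12.64 and 12.54 in stretched cells, against 12.12 and 11.88 in control cells. The phenylephrine and stretched arrays overlapped each other, and all of them lay above both control arrays. Eif2s2 rose by 0.67 ± 0.13 in phenylephrine cells (adjusted p = 0.035), a 1.59-fold difference. Under stretch the difference was 0.59 ± 0.13 (adjusted p = 0.22), and stretch against phenylephrine gave -0.08 ± 0.13 with a 95% interval of -0.39 to 0.22. The phenylephrine call was lost whichever of the 6 arrays was left out, with differences of 0.55 to 0.79 and adjusted p from 0.053 to 0.26, and with only the 2 groups compared in the fit (adjusted p = 0.075).

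Of the 2 called factors, Eif2s2 has a promoter in the RefSeq table. Its 250 bases upstream were searched on both strands for TGATGNAAN, the core of the element bound by C/EBP and ATF proteins such as ATF4. That motif occurred in 1 of 41 factors, which was Eif2s2, and in 3.38% of 33469 promoters. The window is on GRCr8 chr3:163855571-163855820, minus strand, with 60.0% G and C, and the match, in capitals, begins at position -36 from the gene start.
Eif2s2 promoter: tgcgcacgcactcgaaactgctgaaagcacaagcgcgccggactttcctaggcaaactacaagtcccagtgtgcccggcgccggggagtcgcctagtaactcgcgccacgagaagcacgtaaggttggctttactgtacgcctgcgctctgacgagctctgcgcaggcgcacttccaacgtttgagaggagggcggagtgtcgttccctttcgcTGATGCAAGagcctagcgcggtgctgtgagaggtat
No CACGTG lies in this window.

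The other eIF2 subunits did not pass the test. Eif2s1, the α subunit that the stress kinases phosphorylate, had 12.04 and 11.70 in phenylephrine cells and 12.13 and 11.89 in stretched cells, against 11.81 and 11.49 in control cells. Its difference was 0.22 ± 0.17 in phenylephrine cells and 0.36 ± 0.17 in stretched cells, and only the stretched arrays lay clear of the control arrays. For the γ subunit, Eif2s3 stood at -0.08 and 0.06 and its Y-linked copy Eif2s3y at -0.13 and 0.22 in phenylephrine and stretched cells. These copies are near-identical and share 1 of the probe sets with several symbols, so their separate values are uncertain.

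The exchange factor eIF2B recharges eIF2 with GTP. Eif2b3, its γ subunit, had 9.44 and 9.22 in phenylephrine cells and 9.75 and 9.56 in stretched cells, against 8.97 and 8.93 in control cells. The stretched arrays were the highest, the phenylephrine arrays came next, and the 3 groups did not overlap. The stretch difference of 0.70 ± 0.11 was the largest among the 45 factors and missed the threshold (adjusted p = 0.061), and 4 of 14 alternative settings called it. The phenylephrine difference was 0.38 ± 0.11 (adjusted p = 0.12), and stretch against phenylephrine gave 0.32 ± 0.11 (adjusted p = 0.28). The other 4 subunits, Eif2b1, Eif2b2, Eif2b4 and Eif2b5, had differences between -0.11 and 0.10 in phenylephrine cells and between -0.04 and 0.14 in stretched cells.

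The multi-subunit scaffold eIF3 binds the small ribosomal subunit and connects it to eIF4G. Of its 11 measured genes 0 were called in any comparison. Their median difference from control was -0.03 in phenylephrine cells and 0.11 in stretched cells. By array it was 0.09 and -0.14 in phenylephrine cells, so its sign differed between the 2 arrays, and 0.13 and 0.14 in stretched cells, against 0.06 and -0.06 in control cells. In stretched cells 7 of 11 had both arrays above both control arrays and 0 had both below (background 19.4% and 16.5%). In phenylephrine cells 3 had both arrays above and 2 had both below (background 21.5% and 22.1%, and 20.9% and 29.9% over probe sets brighter than the median). Stretched arrays also lay above both phenylephrine arrays for 7 of 11 genes, with a median of 0.13, where the background was 21.6% over all probe sets and 26.9% over those brighter than the median.

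Within eIF3 the subunits differed in direction under phenylephrine. Eif3j, a loosely attached subunit that helps in ribosome recycling, had 11.996 and 11.598 in phenylephrine cells and 12.371 and 12.137 in stretched cells, against 12.316 and 11.979 in control cells. Its phenylephrine difference was -0.35 ± 0.18 (adjusted p = 0.39) with overlapping arrays. Eif3f, which carries the MPN fold, had 12.84 and 12.63 in phenylephrine cells and 13.05 and 13.03 in stretched cells, against 13.14 and 12.99 in control cells. Its phenylephrine difference was -0.33 ± 0.12 (unadjusted p = 0.021, adjusted p = 0.20), with both arrays below both control arrays. Eif3i, a WD-repeat subunit, stood at 0.31 ± 0.12 in the same comparison (adjusted p = 0.25).

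Under stretch the largest eIF3 difference was that of Eif3d, a subunit known to bind the cap of some mRNAs. Eif3d had 11.93 and 11.73 in phenylephrine cells and 11.86 and 11.97 in stretched cells, against 11.61 and 11.61 in control cells. All 4 stimulated arrays lay above both control arrays, with differences of 0.22 ± 0.12 and 0.30 ± 0.12 in phenylephrine and stretched cells (adjusted p = 0.42 and 0.81). Eif3c and Eif3b, core subunits, stood at 0.28 each in stretched cells and at 0.16 and 0.12 in phenylephrine cells. Eif3a, the largest subunit, stood at -0.11 in phenylephrine cells and 0.14 in stretched cells. The remaining 4 subunits, Eif3h, Eif3k, Eif3l and Eif3m, lay between -0.07 and -0.03 in phenylephrine cells and between -0.01 and 0.11 in stretched cells. Second probe sets of Eif3h, Eif3k and Eif3l gave 0.04, 0.04 and 0.28 in phenylephrine cells. In stretched cells they gave -0.03, 0.11 and -0.0016.

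**Figure D3:**
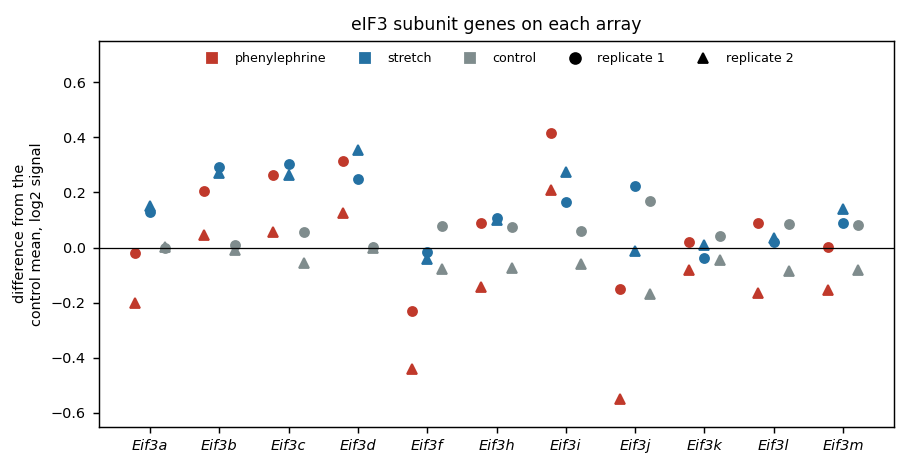
Difference from the control mean (log2) of the 11 measured eIF3 subunits on each array, coloured by group, with circles for replicate 1 and triangles for replicate 2. The stretched arrays lie above both control arrays for 7 of 11 subunits, and the phenylephrine arrays fall on both sides of the control arrays, with Eif3f and Eif3j lowest.

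The helicase eIF4A unwinds the leader of the mRNA with the help of Eif4b and Eif4h. Eif4a1, the main form in growing cells, had 12.59 and 12.41 in phenylephrine cells and 12.51 and 12.49 in stretched cells, against 12.32 and 11.99 in control cells. Each stimulated array lay above both control arrays. The differences were 0.35 ± 0.14 in phenylephrine cells and 0.34 ± 0.14 in stretched cells (unadjusted p = 0.037 and 0.038, adjusted p = 0.26 and 0.83). RefSeq names 8 pseudogenes after Eif4a1, and whether its probes read them was not tested.

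The cofactors Eif4b and Eif4h had phenylephrine values below control on their brightest probe sets. Eif4b had 11.49 and 11.28 in phenylephrine cells and 11.80 and 11.71 in stretched cells, against 11.77 and 11.64 in control cells. Its phenylephrine arrays were below both control arrays, with a difference of -0.32 ± 0.12 (unadjusted p = 0.034, adjusted p = 0.25), and its second probe set gave -0.46. Stretch against phenylephrine gave 0.37 ± 0.12 for Eif4b (adjusted p = 0.27). Eif4h stood at -0.18 in phenylephrine cells and -0.06 in stretched cells, and its second probe set gave 0.08 and -0.04. Eif4a2, a close relative of Eif4a1, stood at 0.07 and 0.20, and Eif4a3, which belongs to the exon junction complex, at 0.15 and 0.10 in phenylephrine and stretched cells.

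The scaffold eIF4G joins the cap-binding protein, the helicase and eIF3. Eif4g3 had 9.91 and 9.86 in phenylephrine cells and 9.93 and 9.89 in stretched cells, against 10.02 and 10.10 in control cells. All 4 stimulated arrays lay below both control arrays, with differences of -0.18 ± 0.10 in phenylephrine cells and -0.15 ± 0.10 in stretched cells (adjusted p = 0.44 and 1.0). The gene's other probe set gave 0.01 in phenylephrine cells. Eif4g1, the main scaffold, stood at -0.0030 and 0.13, and Eif4g2, a relative that does not bind eIF4E, at -0.03 and 0.13 in phenylephrine and stretched cells. The other probe sets of Eif4g1 gave -0.21 to -0.01 in phenylephrine cells and 0.03 to 0.07 in stretched cells. The other 2 probe sets of Eif4g2 gave -0.39 and 0.15 in phenylephrine cells and -0.05 and 0.11 in stretched cells, so the gene's probe sets disagree.

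Start codon choice depends on eIF1 and eIF1A, small proteins bound near the decoding site. All 4 members of this role lay above both control arrays in phenylephrine cells (background 21.5%) and 3 of 4 in stretched cells (background 19.4%). Of them 0 were called (background 3.6% and 0.345%). These counts include Eif1a, which was placed in this role after its values were seen. Without it they are 3 of 3 in phenylephrine cells and 2 of 3 in stretched cells. Eif1 is not among the members, and Eif5, which belongs to this role, has only probe sets with several symbols. The Eif5 probe sets gave -0.24, -0.32 and -0.63 in phenylephrine cells and 0.41, 0.21 and 0.40 in stretched cells. Eif1a had 11.29 and 10.88 in phenylephrine cells and 11.15 and 10.95 in stretched cells, against 10.69 and 10.54 in control cells. The differences were 0.47 ± 0.16 and 0.44 ± 0.16 in phenylephrine and stretched cells (unadjusted p = 0.020 and 0.027, adjusted p = 0.19 and 0.72). Its other 3 probe sets gave 0.40 to 0.47 in phenylephrine cells and 0.53 to 0.61 in stretched cells. Eif1ad, a protein with an eIF1A-like domain, stood at 0.23 and 0.39, and Eif1ax at 0.26 and 0.11. Eif1b had 10.43 and 10.37 in phenylephrine cells and 10.17 and 10.22 in stretched cells, against 10.28 and 10.32 in control cells, so the stimuli lay on opposite sides of control. Eif3a and Eif4ebp3 were the other factors placed like this, which held for 3.21% of all probe sets.

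Joining of the large ribosomal subunit is promoted by the GTPase eIF5B, while eIF6 keeps free large subunits from joining too early. Eif6 had 12.21 and 12.06 in phenylephrine cells and 12.27 and 12.26 in stretched cells, against 11.92 and 11.84 in control cells. Here too the 4 stimulated arrays lay above both control arrays. The stretch difference was 0.38 ± 0.11 (unadjusted p = 0.0093, adjusted p = 0.48) and the phenylephrine difference 0.26 ± 0.11 (adjusted p = 0.31). Eif5b stood at -0.16 in phenylephrine cells and 0.03 in stretched cells. Its other probe sets gave -0.16 and 0.20 in phenylephrine cells and 0.17 and 0.12 in stretched cells, so they disagree on phenylephrine.

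The hypusine-carrying factor eIF5A helps ribosomes past difficult stretches of peptide. Eif5a2 had 8.92 and 8.58 in phenylephrine cells and 8.73 and 8.60 in stretched cells, against 8.44 and 8.39 in control cells. All 4 stimulated arrays lay above both control arrays, by 0.34 ± 0.11 in phenylephrine cells and 0.25 ± 0.11 in stretched cells (adjusted p = 0.18 and 0.95). Eif5a, the widely expressed form, had 13.12 and 13.27 in phenylephrine cells and 12.99 and 13.12 in stretched cells, against 12.93 and 12.82 in control cells. Its differences were 0.31 ± 0.11 and 0.18 ± 0.11 in phenylephrine and stretched cells (adjusted p = 0.20 and 1.0).

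Among the alternative tRNA carriers, Eif2a had 10.29 and 9.74 in phenylephrine cells and 10.61 and 10.02 in stretched cells, against 10.34 and 10.10 in control cells. Its arrays differed within the stimulated groups by more than the groups differed from control, and the differences of -0.20 ± 0.23 and 0.10 ± 0.23 in phenylephrine and stretched cells did not pass the test. Eif2d, which can deliver tRNA to the ribosome without GTP, stood at 0.06 and 0.09.

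**Figure D4:**
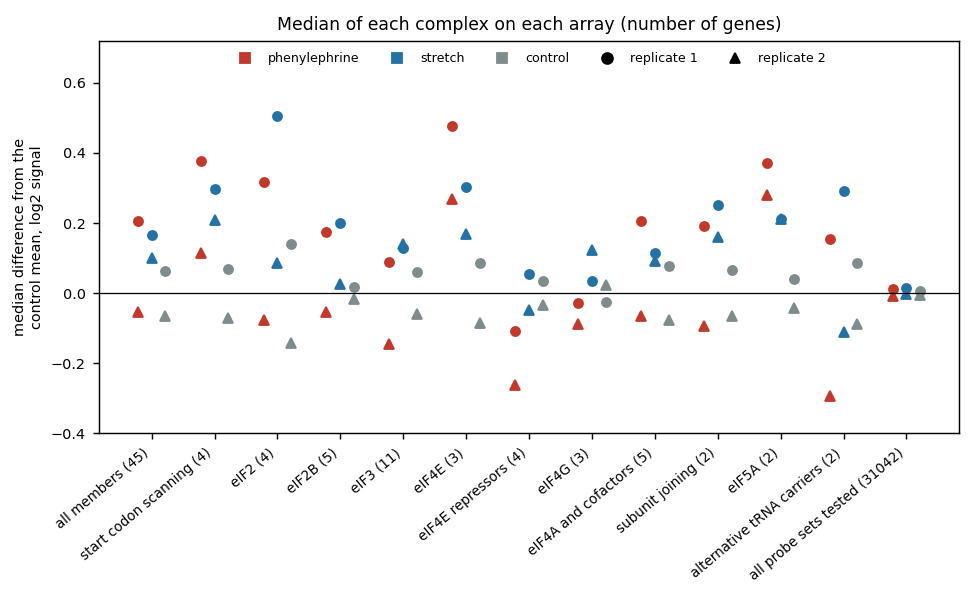
Median difference from the control mean (log2) over the genes of each complex or role on every array, coloured by group, with circles for replicate 1 and triangles for replicate 2. On the phenylephrine arrays the cap-binding, eIF5A and start codon roles have the highest medians among the roles. On the stretched arrays these medians are 0.30 and 0.17, 0.21 and 0.21, and 0.30 and 0.21, also above the eIF3 medians of 0.13 and 0.14. On stretched replicate 1 the eIF2 median is the highest at 0.51, and alternative tRNA carriers (0.29) and subunit joining (0.25) lie above eIF5A. On stretched replicate 2 these medians are 0.09, -0.11 and 0.16. The start codon role includes Eif1a, placed there after its values were seen, and leaves out Eif5, which has only probe sets with several symbols.

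Genes around the initiation factors, from their regulators to elongation and termination, were taken from 7 lists with 51 genes found. In phenylephrine cells 3 of 51 rose and 0 fell, near the share of all probe sets called (3.6%). In stretched cells 3 rose and 0 fell (background 0.345%), and between stretch and phenylephrine 2 were higher and 1 was lower under stretch (background 1.33%). All of these calls were in the lists on eIF2 phosphorylation and on eIF4F regulation. The lists were chosen with earlier results of these data known and the background was not, so no excess is read from these counts.

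The eIF2 phosphorylation list had 12 genes found. Ppp1r15a, which directs a phosphatase to eIF2, had 10.36 and 10.30 in phenylephrine cells and 10.76 and 10.84 in stretched cells, against 9.79 and 9.79 in control cells. Ppp1r15a rose by 0.54 ± 0.10 in phenylephrine cells (adjusted p = 0.032) and by 1.01 ± 0.10 in stretched cells (adjusted p = 0.0097). Trib3, a pseudokinase induced by stress, had 9.38 and 9.25 in phenylephrine cells and 10.29 and 10.27 in stretched cells, against 8.62 and 8.68 in control cells. Trib3 rose by 0.67 ± 0.09 in phenylephrine cells (adjusted p = 0.010) and by 1.63 ± 0.09 in stretched cells (adjusted p = 0.00074), and it was higher under stretch than under phenylephrine by 0.96 ± 0.09 (adjusted p = 0.0050). Its arrays separated into 3 levels, highest under stretch. Ddit3, a transcription factor of the stress response, had 10.59 and 10.39 in phenylephrine cells and 11.36 and 11.31 in stretched cells, against 10.73 and 10.63 in control cells. Ddit3 was higher under stretch than under phenylephrine by 0.84 ± 0.12 (adjusted p = 0.021).

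Atf4 encodes the transcription factor whose translation increases when eIF2 is phosphorylated, and was chosen after its values were seen. It had 13.23 and 13.16 in phenylephrine cells and 13.19 and 13.21 in stretched cells, against 12.82 and 12.63 in control cells. Its differences of 0.47 ± 0.11 and 0.48 ± 0.11 in phenylephrine and stretched cells did not pass the threshold (adjusted p = 0.058 and 0.22).

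The eIF4F regulation list had 15 genes found, and a different gene was called with each stimulus. Ddit4, an inhibitor of mTOR signalling, had 10.47 and 10.52 in phenylephrine cells and 9.78 and 9.77 in stretched cells, against 9.79 and 9.81 in control cells. Ddit4 rose by 0.69 ± 0.10 in phenylephrine cells (adjusted p = 0.011), and stretch against phenylephrine gave -0.72 ± 0.10 (adjusted p = 0.018). Sesn2, which also restrains mTOR, had 9.74 and 9.77 in phenylephrine cells and 10.30 and 10.29 in stretched cells, against 9.31 and 9.47 in control cells. Sesn2 rose by 0.91 ± 0.10 in stretched cells (adjusted p = 0.014), with a phenylephrine difference of 0.37 ± 0.10 (adjusted p = 0.11). Stretch against phenylephrine gave 0.54 ± 0.10 for Sesn2 (adjusted p = 0.055).

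**Figure D5:**
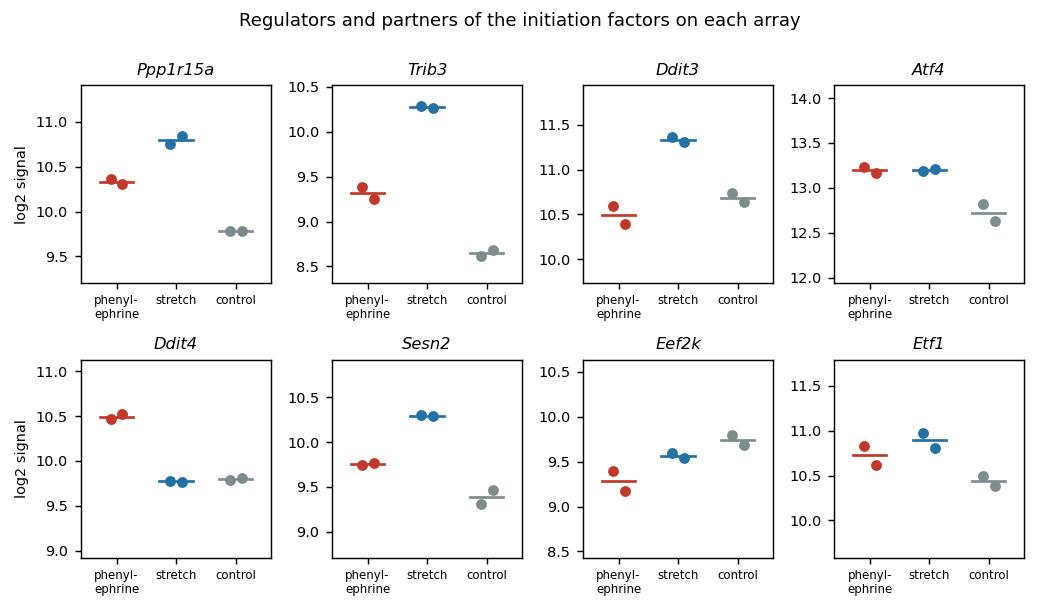
Log2 signal (y axis, each panel spanning the same range around the gene's mean) of 8 genes from the lists around the initiation factors. The x axis holds the phenylephrine, stretched and control arrays, with dots for arrays and a line for each group mean. Ppp1r15a, Trib3 and Sesn2 are highest under stretch, and Ddit4 is high on the phenylephrine arrays with the stretched and control arrays at one level.

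The other 5 lists, on poly(A) binding, other initiation helpers, hypusination, elongation and termination, held 24 genes with 0 called in the 3 comparisons. Eef2k, the kinase that slows elongation, stood at -0.46 ± 0.11 in phenylephrine cells (adjusted p = 0.071), the largest difference of these 24 in that comparison. Most of the elongation list lay on the other side: 6 of 9 had both phenylephrine arrays above both control arrays (background 21.5%) and 5 had an unadjusted p under 0.05 (background 6.98%). These 5 were Eef1a2 (0.44), Eef1e1 (0.40), Eef1b2 (0.38), Eef1g (0.31) and Eef1d (0.24), named after their values were seen. In stretched cells 5 of 9 of this list had both arrays above both control arrays (background 19.4%). At an unadjusted p under 0.05, 3 of the 9 were higher there (background 3.6%). Eef1e1, a component of the aminoacyl-tRNA synthetase complex, had the largest elongation difference in stretched cells at 0.36. The termination factor Etf1 stood at 0.29 and 0.45, and the recycling factor Abce1 at 0.30 and 0.39 in phenylephrine and stretched cells. Dohh, which completes hypusine on eIF5A, stood at -0.13 and 0.13. The poly(A)-binding genes had their largest differences at -0.23 for Pabpn1 in phenylephrine cells and 0.14 for Pabpc4 in stretched cells.

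Genes with several probe sets give a check within the arrays. Of the 45 factors 18 had several, with 43 in all, and 0 of these 43 was called in any comparison. All probe sets of a gene had the same sign in 9 of 18 genes in phenylephrine cells and in 13 of 18 in stretched cells. The called genes Eif4ebp1 and Eif2s2 had 1 probe set each, so neither has such a check. The 5 probe sets with several symbols had median differences of -0.24 in phenylephrine cells and 0.21 in stretched cells, with 0 called. For stretch against phenylephrine those of Eif5 gave 0.65, 0.53 and 1.04, each with both stretched arrays above both phenylephrine arrays (background 21.6%). Those of Eif3e and of Eif2s3 with Eif2s3y gave 0.03 and 0.09. RefSeq names no pseudogene after Eif4ebp1, Eif2b3 or Eif4e3 and names 1 after Eif2s2.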

How the data were processed

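RNA of 6 samples was measured on single-channel Affymetrix arrays. The deposited table holds 1 number for each probe set on each array. These were read as log2 expression, since they ran from 5.80 to 15.18. How the authors summarised and normalized these log2 values before they were deposited is not given in the sources used, and they were kept unchanged. Of 31099 probe sets, 57 array controls were left out. Gene symbols came from the platform annotation. Probe sets with several symbols (436) were fitted but not named, and 9780 had no symbol. Entrez identifiers of 45 of 45 members were in the rat RefSeq table.

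With limma 3.58.1 (R 4.3.3), lmFit estimated a mean for each group from all 6 arrays together, eBayes was run with a mean-variance trend, and 3 contrasts were tested two-sided with Benjamini-Hochberg adjustment. Residual degrees of freedom were 3 and the prior added 4.8. With 2 arrays a group, exact permutation cannot give a p below 0.333 and was not used. For arrays, their number limits the precision.

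The members and lists were chosen with earlier results of these data known. Array values were given for each member called and, in each complex, for the member with the largest absolute difference from control with either stimulus. Further members were added after their values were seen. From each list, up to 3 called genes or else the 1 with the largest difference were named. Eif1a was placed in the start codon role after its values were seen. Without it, that role's medians are 0.23 in phenylephrine cells and 0.11 in stretched cells, in place of 0.25 and 0.25. Promoters come from RefSeq on GRCr8. In all, 14 alternative settings were run.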

Additional observations from a re-analysis of the deposited data

Results flagged for a closer look

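Eif1b, Eif3a and Eif4ebp3 had both phenylephrine arrays on one side of both control arrays and both stretched arrays on the other, a placement that 3.21% of all probe sets shared. Stretch minus phenylephrine was -0.20 for Eif1b, 0.25 for Eif3a and 0.29 for Eif4ebp3 on the log2 scale. The limma test of that difference did not pass for any of them (adjusted p = 0.49, 0.43 and 0.30).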

How the results depend on the processing

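All counts are of calls at an adjusted p below 0.05. With quantile normalization the calls over all probe sets numbered 2790 for phenylephrine, 386 for stretch and 1527 for stretch against phenylephrine, in place of 1117, 107 and 413. Among the initiation factors they were then 9 higher and 3 lower for phenylephrine, 4 higher for stretch, and 3 higher and 2 lower for stretch against phenylephrine, in place of 2, 0, 0, 0 and 0. The share of stretch calls that were higher was 72.5% with it and 88.8% without. Fitting only the 2 groups compared gave 661 phenylephrine calls with 1 initiation factor, and 230 calls for stretch against phenylephrine. Averaging a gene's probe sets, and testing 1 probe set per gene, each gave 1 stretch call, Eif2b3. The second of these also gave 1 lower call, Eif4e3, for stretch against phenylephrine. Groups share replicate numbers 1 and 2 that the labels do not tie together, and deviations of same-numbered arrays correlated at 0.49 to 0.67. With the replicate number as a block there were 5384, 1028 and 3734 calls over all probe sets, and among the factors 8 higher and 4 lower for phenylephrine, 6 higher for stretch, and 5 higher and 1 lower for stretch against phenylephrine. That fit called Eif3j (adjusted p = 0.022) and Eif4e3 (0.00018) for phenylephrine, and Eif2b3 (9.5e-05), Eif2s2 (0.0046) and Eif4ebp1 (0.0064) for stretch. Leaving out each array in turn gave 189 to 1249, 26 to 112 and 51 to 473 calls over all probe sets. Among the factors it gave 0 to 3 higher for phenylephrine and 0 to 1 lower for stretch against phenylephrine. It moved the factors' median to between -0.05 (without phenylephrine replicate 1) and 0.21 (without phenylephrine replicate 2) for phenylephrine. The stretch median ran from 0.033 (without control replicate 2) to 0.20 (without control replicate 1). For stretch against phenylephrine it ran from -0.01 (without phenylephrine replicate 2) to 0.19 (without phenylephrine replicate 1), in place of 0.09. A group left with 1 array is assumed to vary like the others. Eif2a ran from -0.48 to 0.074 for phenylephrine, the positive value without phenylephrine replicate 2. For stretch Eif2a ran from -0.20 (without stretch replicate 1) to 0.39, with -0.02 without control replicate 2. Eif2s2 under stretch against phenylephrine ran from -0.19 to 0.018, the positive value without phenylephrine replicate 1. The Eif4ebp1 call for phenylephrine held in 12 of 14 alternatives and that of Eif2s2 in 7 of 14. The causes were not tested.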
